A study of Homo sapiens with 30 samples.

Results

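The AP-1 genes were examined in breast cancer cells treated with BMP7 or with vehicle. The group comprised the 8 genes FOS, FOSB, FOSL1, FOSL2, JUN, JUNB, JUND and ATF3, chosen by name, and every probe that the array design assigns to them was used. These were 14 of 41000 probes, which carry 30484 different gene names or identifiers. The 5 human breast cancer cell lines HCC1954, MDA-MB-231, MDA-MB-361, T-47D and ZR-75-30 were exposed to recombinant human BMP7 or to vehicle, and RNA was taken at 30 min and at 1, 3, 6, 12 and 24 h. For each line and time point the RNA of vehicle-treated cells, labeled with Cy3, and that of BMP7-treated cells, labeled with Cy5, were hybridized to the same two-colour array, giving 30 arrays. Replicate cultures were pooled before hybridization and the dyes were never swapped, so each line and time point has 1 array, and a constant dye effect of a probe cannot be told apart from a constant effect of BMP7. The lines had been picked because they make little BMP7 themselves, and 2 of them, MDA-MB-231 and T-47D, were grown in medium with less serum than recommended, whose part in the levels was not tested. As the RNA is that of whole cultures, fewer cells expressing a gene and less RNA per cell cannot be told apart. No sample from before the addition of vehicle or BMP7 was analysed here.

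AP-1 is a dimeric transcription factor of the basic leucine zipper family. The Jun proteins (JUN, JUNB, JUND) pair with each other or with Fos proteins (FOS, FOSB, FOSL1, FOSL2), which need a Jun partner, and ATF3 can pair with Jun proteins as well. FOS, FOSB, JUN, JUNB and ATF3 are textbook immediate early genes, transcribed within minutes of a stimulus such as fresh serum, growth factors or handling of the cells, without new protein synthesis. BMP7 is a ligand of the TGF-beta superfamily that acts mainly through SMAD proteins, and its best known early targets are the ID genes and the inhibitory SMADs.

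Promoter sequences are shown for FOS, FOSB, JUN and ATF3, the 4 members with the largest early differences in vehicle-treated cells. RefSeq promoters (GRCh38.p14, from 250 bases before to 50 bases after the start) were matched for 7 of the 8 genes, with a pair of entries for ATF3, and FOSL1 was not matched. Letters searched on both strands were TGANTCA (the AP-1 site), TGACNTCA (a cAMP response element or its variant), TGACG (the first letters of that element, which a TGACGTCA match also holds) and the CArG box bound by serum response factor. These motifs were chosen with the sequences in view, and their matches stand in capitals.
FOS, chr14:75278578-75278877, plus strand: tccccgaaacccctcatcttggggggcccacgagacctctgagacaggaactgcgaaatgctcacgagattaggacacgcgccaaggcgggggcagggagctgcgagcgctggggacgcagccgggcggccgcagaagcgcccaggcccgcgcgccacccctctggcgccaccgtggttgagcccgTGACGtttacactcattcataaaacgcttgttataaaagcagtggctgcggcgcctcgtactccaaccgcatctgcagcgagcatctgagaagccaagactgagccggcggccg
FOSB, chr19:45467746-45468045, plus strand: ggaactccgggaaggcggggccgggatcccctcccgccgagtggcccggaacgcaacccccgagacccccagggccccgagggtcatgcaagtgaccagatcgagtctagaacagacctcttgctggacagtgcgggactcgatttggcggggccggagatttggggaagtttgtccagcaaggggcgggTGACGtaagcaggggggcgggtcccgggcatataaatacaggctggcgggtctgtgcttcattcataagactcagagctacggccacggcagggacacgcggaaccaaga
JUN, chr1:58783998-58784297, minus strand: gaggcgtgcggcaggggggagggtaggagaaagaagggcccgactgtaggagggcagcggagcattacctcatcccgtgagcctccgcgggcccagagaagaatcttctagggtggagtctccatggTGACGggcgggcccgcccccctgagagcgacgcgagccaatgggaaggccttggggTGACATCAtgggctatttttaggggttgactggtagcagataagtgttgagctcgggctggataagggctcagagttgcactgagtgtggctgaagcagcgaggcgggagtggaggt
ATF3, chr1:212565157-212565456, plus strand: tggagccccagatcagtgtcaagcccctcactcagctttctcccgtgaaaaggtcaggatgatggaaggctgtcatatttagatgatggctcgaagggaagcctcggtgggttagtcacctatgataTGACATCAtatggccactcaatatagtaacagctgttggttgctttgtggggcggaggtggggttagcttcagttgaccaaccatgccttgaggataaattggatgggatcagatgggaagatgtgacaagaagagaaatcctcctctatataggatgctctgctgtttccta
JUN and the first ATF3 promoter held the same TGACATCA, with its first base at -67 and -123 from the start. FOS and FOSB held TGACG at -64 and -60, and JUN held it at -123. Of 35116 promoters of this length, 7.72% held TGACNTCA, 24.6% TGACG, 7.71% TGANTCA and 1.29% a CArG box. Among the promoters not printed, JUND held TGACGTCA and FOSL2 held TGACTCA, and JUNB, JUND and FOSL2 each held TGACG as well. No CArG box lay in the window of any member.

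The probes were read as log2 values. The vehicle level is the Cy3 signal of a probe relative to the median probe of its array, so 0 is that median, and levels are compared here between arrays and never between genes. The log ratio is log2 of BMP7 over vehicle, in which 1 is a 2-fold rise. Each gene was read from its brightest probe, and the positions of these probes in build hg18 are given with each gene below. Whether a probe lies in an untranslated region was not analysed. FOS was well above background in the vehicle channel on 27 arrays, FOSB on 22, FOSL1 on 20 and the other members on all 30, and no probe was saturated.

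On each array, 53.8% to 68.4% of the probes stood well over background with both dyes. The vehicle levels of every array correlated better with arrays of its own line than with those of another. For 3 arrays, MDA-MB-231 at 6 h, T-47D at 3 h and the same line at 24 h, the median correlation with the own line was under 0.95, and results that rest on them are also given without them. The arrays were scanned in 2 rounds, and the second held 6 arrays, among them 3 of the 5 arrays of 30 min (ZR-75-30, HCC1954 and MDA-MB-231) but no 1 h array. Among markers of the labeled lines, the estrogen receptor gene ESR1 was well above background on all 6 arrays each of MDA-MB-361, T-47D and ZR-75-30 at mean levels of 4.26, 3.72 and 2.60, on 6 of 6 of HCC1954 at -0.56, and on 0 of 6 of MDA-MB-231. Its targets did not all follow it, since TFF1 was at 6.01 in MDA-MB-231 and PGR was not well above background on any array of ZR-75-30. Of 9 markers of other cell types, 2 (MDA-MB-231) to 5 (HCC1954) were well above background on all 6 arrays of a line, at mean levels of up to 2.23 (COL1A1 in MDA-MB-361), and PTPRC and DCN on no array. Whether any such cells were present in these cell lines, or had a part in the results, was not tested.

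In vehicle-treated cells, FOS at 30 min and 1 h and FOSB at 1 h stood higher than from 3 h onwards. FOS was 8.87-fold higher at 30 min and 9.08-fold higher at 1 h than at 3 to 24 h, and FOSB was 8.41-fold higher at 1 h, with the same direction in all 5 lines. Among 41000 probes, FOS ranked 1 by size of the excess over 3 to 24 h at both early times, and FOSB ranked 2 at 1 h. ATF3 stood 2.73-fold higher at 1 h and JUN 1.76-fold higher at both times, but neither passed the test, and no change was called for FOSL1, FOSL2, JUNB or JUND.

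FOS encodes the founding Fos protein, and its probe lies at chr14:74817967-74818026. In HCC1954 its vehicle level was 3.38 at 30 min and 6.21 at 1 h, then 1.76, 1.92, 1.01 and 1.33 at 3, 6, 12 and 24 h. In T-47D it was 3.86 and 3.69, then -0.54, -0.80, -1.70 and -2.59. In ZR-75-30 it was 4.42 and 3.55, then 1.93, 1.65, 1.46 and 1.70. Early and late levels did not overlap in these lines, and the 3, 12 and 24 h signals of T-47D were not well above background. In MDA-MB-361, again with no overlap, the levels were 2.91 and 2.47, then -0.74, -0.80, -1.13 and -1.57. In MDA-MB-231 they were 2.40 and 1.23, then 0.23, 1.66, 0.08 and 0.07. MDA-MB-231 thus had the smallest early excess at 1 h, and its 1 h value lay below that of the 6 h array, which stands apart.

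Fitted over the lines, FOS was higher by 3.15 at 30 min (SE 0.46, limma, adjusted p = 0.00892) and by 3.18 at 1 h (SE 0.46, limma, adjusted p = 0.00369). At 30 min, 1 of the 8 members was called, higher, against 0.00732% of all probes (0.00488% higher and 0.00244% lower), and at 1 h 2 were called, against 0.00976%. Both comparisons share the 20 arrays of 3 to 24 h. The 30 min value of FOS lay above each later value of 3 to 24 h in 5 of 5 lines, as did 0.111% of probes, and the 1 h value in 4 of 5 (both times in all lines for 0.00775% of probes). A value over the mean of 3 to 24 h in every line, as FOS and FOSB had at both times, was found for 4.29% of probes at 30 min and 3.46% at 1 h. On the lines whose 30 min array came from the first scan round, the difference at 30 min was 3.98 in MDA-MB-361, all scanned on the same day, and 5.27 in T-47D. With scan round as a term it was 3.13 (limma, adjusted p = 0.0220), and with scan day as a term 3.45 (limma, adjusted p = 0.0768), which no longer passed. Without MDA-MB-361 the adjusted p was 0.130 at 30 min and 0.175 at 1 h, without ZR-75-30 it was 0.104 at 30 min, and without HCC1954 it was 0.221 at 1 h (limma), with differences of 2.80 to 3.25 in these fits. Without the 3 arrays that stand apart it was 3.13 at 30 min (limma, adjusted p = 0.00274) and 3.16 at 1 h (limma, adjusted p = 0.00114).

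FOSB, a close relative of FOS that also gives a truncated protein, was read at chr19:50670045-50670104. In HCC1954 its vehicle level was 1.19 at 30 min and 5.77 at 1 h, then 1.46, 0.84, 0.64 and 0.25. In the other 4 lines it lay between -0.97 and 0.88 at 30 min and between -0.22 and 1.60 at 1 h. The 1 h value was the highest of the 6 in every line, a position above each of 3 to 24 h that 0.0775% of probes held in all lines. The difference at 1 h was 3.07 (SE 0.35, limma, adjusted p = 6.17e-05), from 2.23 in T-47D to 4.97 in HCC1954. At 30 min it was 1.48 (SE 0.35, limma, adjusted p = 0.288). The vehicle signal was not well above background on 8 of the 20 arrays of 3 to 24 h, namely all 4 of MDA-MB-361 (-3.21 to -2.57), T-47D at 3 and 24 h, MDA-MB-231 at 6 h and ZR-75-30 at 12 h, so the differences of these lines rest in part on levels near the detection limit. Without the 3 arrays that stand apart the difference was 3.03 at 1 h (limma, adjusted p = 0.000586) and 1.44 at 30 min (limma, adjusted p = 0.0748).

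ATF3, a stress-induced member of the ATF/CREB family, was read at chr1:210860479-210860538. In HCC1954 its vehicle level was 5.61 at 30 min and 8.34 at 1 h, then 6.44, 6.00, 4.81 and 5.77. In ZR-75-30 it was 4.12 and 4.997, then 3.90, 2.79, 3.05 and 3.05. The 1 h value was the highest of the 6 in every line, on both ATF3 probes against 3 to 24 h. The difference at 1 h was 1.45 (SE 0.27, limma, adjusted p = 0.0711), from 0.48 in MDA-MB-231 to 2.59 in HCC1954, and 1.95 on the dimmer probe at chr1:210859460-210859519 (SE 0.41, limma, adjusted p = 0.219). On its brightest probe, ATF3 ranked 18 of 41000 by size of the excess at 1 h over 3 to 24 h. This difference passed the threshold under 3 of 17 alternatives.

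JUN, the founding Jun protein gene, was read at chr1:59020317-59020376 from 10 spots per array. In HCC1954 its vehicle level was 6.58 at 30 min and 7.65 at 1 h, then 5.87, 5.34, 5.15 and 5.38. In MDA-MB-361 it was 2.93 and 3.14, then 1.52, 2.50, 1.83 and 1.47. Both early levels lay above all later ones in ZR-75-30, HCC1954 and MDA-MB-361. How many of all probes did so in as many lines was not counted. In MDA-MB-231 and T-47D the 1 h level differed by -0.50 and -0.05 from the mean of 3 to 24 h. The fitted difference was 0.82 at 30 min (SE 0.26, limma, adjusted p = 0.379) and 0.81 at 1 h (SE 0.26, limma, adjusted p = 1).

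The other members moved less with time in vehicle-treated cells. At 1 h JUNB differed by 0.33 (SE 0.22), FOSL2 by 0.06 (SE 0.17) and JUND by -0.12 (SE 0.32), each with an adjusted p of 1 (limma). FOSL1 differed by -0.49 at 1 h (SE 0.48, limma, adjusted p = 1). Whether the change with time differed between the lines was tested in a fit added after the data had been seen, and no member passed (FOS, limma, adjusted p = 0.156), where 0.123% of probes did.

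**Figure D1:**
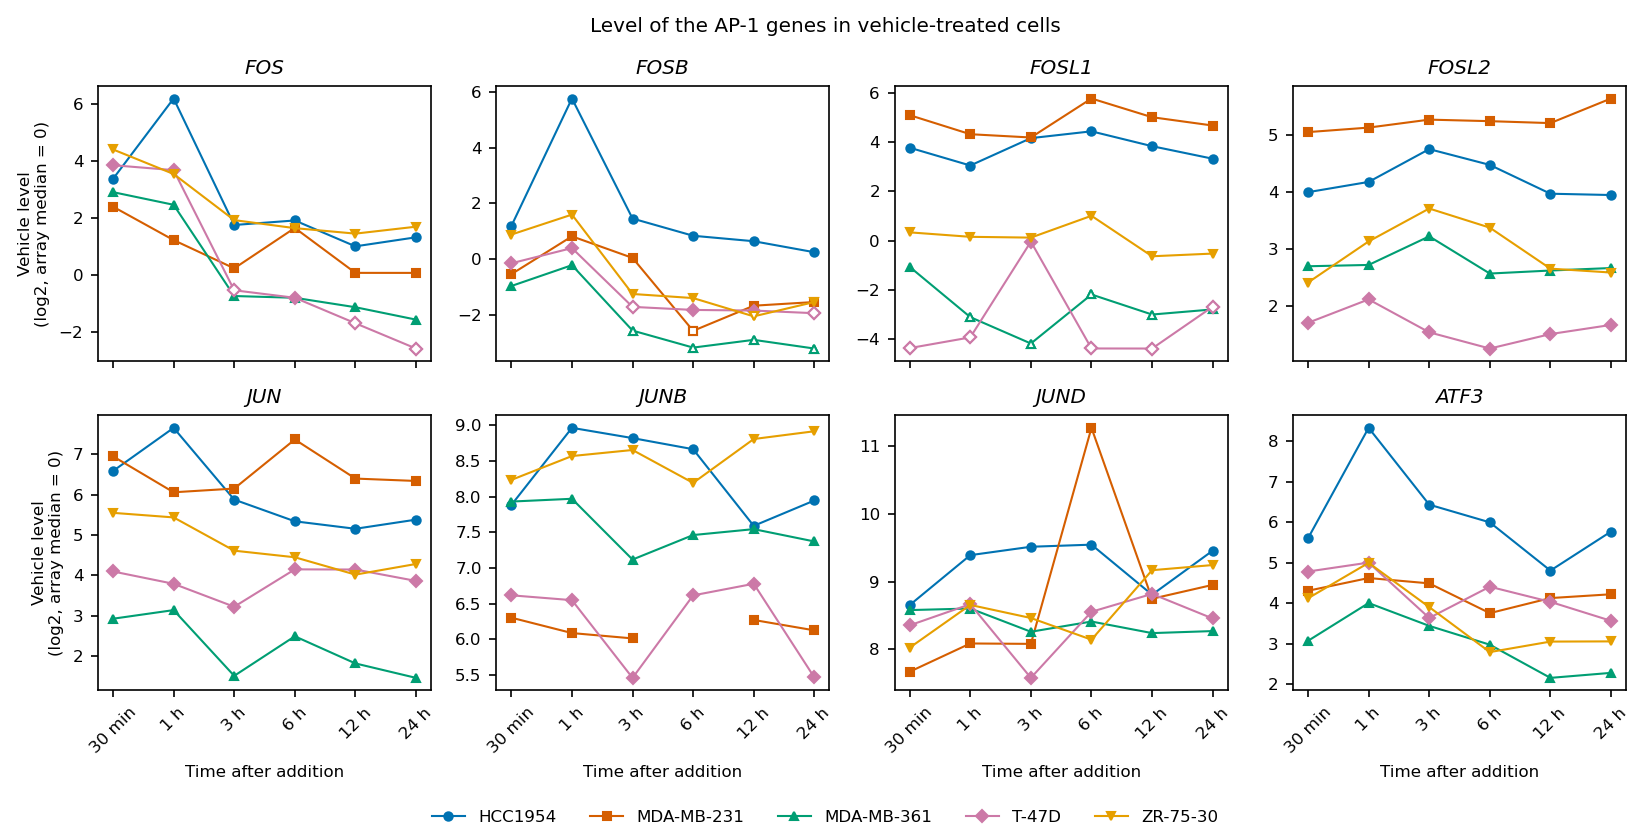
Vehicle level (log2, array median = 0) of each AP-1 gene against time after addition, 1 line per cell line and 1 array per point, with open symbols where the vehicle signal was not well above background. The vertical axes differ between genes. In each line FOS and FOSB peak at 30 min or 1 h, with 6.21 and 5.77 in HCC1954 at 1 h, and the 11.27 of JUND in MDA-MB-231 at 6 h is from an array that stands apart.

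The BMP7-treated cells ran alongside. Their FOS level was 2.77 to 3.98 at 30 min and 1.49 to 6.09 at 1 h over the 5 lines, against 2.40 to 4.42 and 1.23 to 6.21 with vehicle. At 3 to 24 h it was -1.91 to 1.99 with BMP7 and -2.59 to 1.93 with vehicle. FOSB at 1 h was 0.55 to 5.65 with BMP7 and -0.22 to 5.77 with vehicle.

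With BMP7, the AP-1 genes differed little from vehicle. Over the 5 lines, the mean log ratio was between -0.10 (FOSL2) and 0.37 (JUND), and 0 of 8 members passed the test, where 0.00976% of all probes did. The same test also called 0 of 6 listed BMP targets, whose median log ratio was 0.488, beside 0.019 for the members. At an unadjusted p under 0.05, 3 members (FOSL2, JUNB and JUND) and 15.4% of all probes passed. Of 238 log ratios of members, 88.7% lay within 1.5-fold of vehicle, against 92.0% over all probes.

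JUNB and JUND, which encode the Jun proteins often described as restraining JUN, were the members whose log ratio was most often above 0. JUNB (chr19:12765047-12765106) was above 0 on all 28 arrays measured, from 0.14 to 0.69 with a median of 0.38. JUND (chr19:18251756-18251814) was above 0 on 29 of 30 arrays, from -0.01 to 0.66 with a median of 0.33. A log ratio above 0 on every array measured occurred for 0.171% of probes. The mean over lines was 0.36 for JUNB (SE 0.04, limma, adjusted p = 0.0735) and 0.37 for JUND (SE 0.04, limma, adjusted p = 0.0834). Both kept their direction under all 13 alternatives and passed the threshold under 5 of them. The dimmer JUNB probe (chr19:12763998-12764057) went another way, with a mean of 0.01 (SE 0.14, limma, adjusted p = 0.993), above 0 on 13 of 30 arrays. Since the dyes were not swapped, a dye effect of the brighter probes cannot be told apart from BMP7. The JUNB log ratio was missing on HCC1954 at 12 h and MDA-MB-231 at 6 h, where the spot was marked as an outlier.

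The mean log ratio of FOS, FOSB, FOSL1, JUN and ATF3 did not have the same sign in all 5 lines. The mean log ratio was 0.13 for FOS (SE 0.10, limma, adjusted p = 0.599), 0.02 for FOSB (SE 0.08, limma, adjusted p = 0.934) and 0.01 for FOSL1 (SE 0.06, limma, adjusted p = 0.951). FOSL2 (chr2:28492611-28492670) was below 0 in mean in all 5 lines, at -0.10 (SE 0.03, limma, adjusted p = 0.242), but its 4 probes disagreed, with the probe at chr2:28489024-28489083 at 0.11 (SE 0.02, limma, adjusted p = 0.124) and above 0 in all 5 lines. A mean log ratio above 0 in every line was found for 6.54% of all probes, and the share below 0 in every line was not counted. JUN was at -0.09 (SE 0.10, limma, adjusted p = 0.709) and ATF3 at -0.06 (SE 0.08, limma, adjusted p = 0.779). None of these members passed the test.

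An early response of the AP-1 genes to BMP7 was looked for by comparing log ratios at 30 min or 1 h with those at 3 to 24 h. At 30 min, 0 of 8 members passed, where 0.195% of probes did, and 1 member (JUNB) had an unadjusted p under 0.05, as did 17.4% of probes. At 1 h, 0 members and 0.0% of probes passed, and no member but 8.27% of probes had an unadjusted p under 0.05. FOS differed by -0.20 at 30 min (SE 0.17, limma, adjusted p = 0.648) and by 0.05 at 1 h (SE 0.17, limma, adjusted p = 0.995). JUNB differed by -0.20 at 30 min (SE 0.07, limma, adjusted p = 0.157), with a lower value than the later mean in 5 of 5 lines. The share of all probes that were lower in every line was not counted. In the same fit, 4 of 6 listed BMP targets passed, each with a lower log ratio at 30 min than at 3 to 24 h (0.0927% of all probes were called lower). At 1 h 0 of the 6 passed, with a median difference of -0.55. The differences at 30 min were -1.14 for ID2 (SE 0.16, adjusted p = 0.00262), -1.05 for ID1 (SE 0.22, adjusted p = 0.0475), -0.92 for ID3 (SE 0.16, adjusted p = 0.0246) and -0.58 for SMAD6 (SE 0.12, adjusted p = 0.0461), all by limma.

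**Figure D2:**
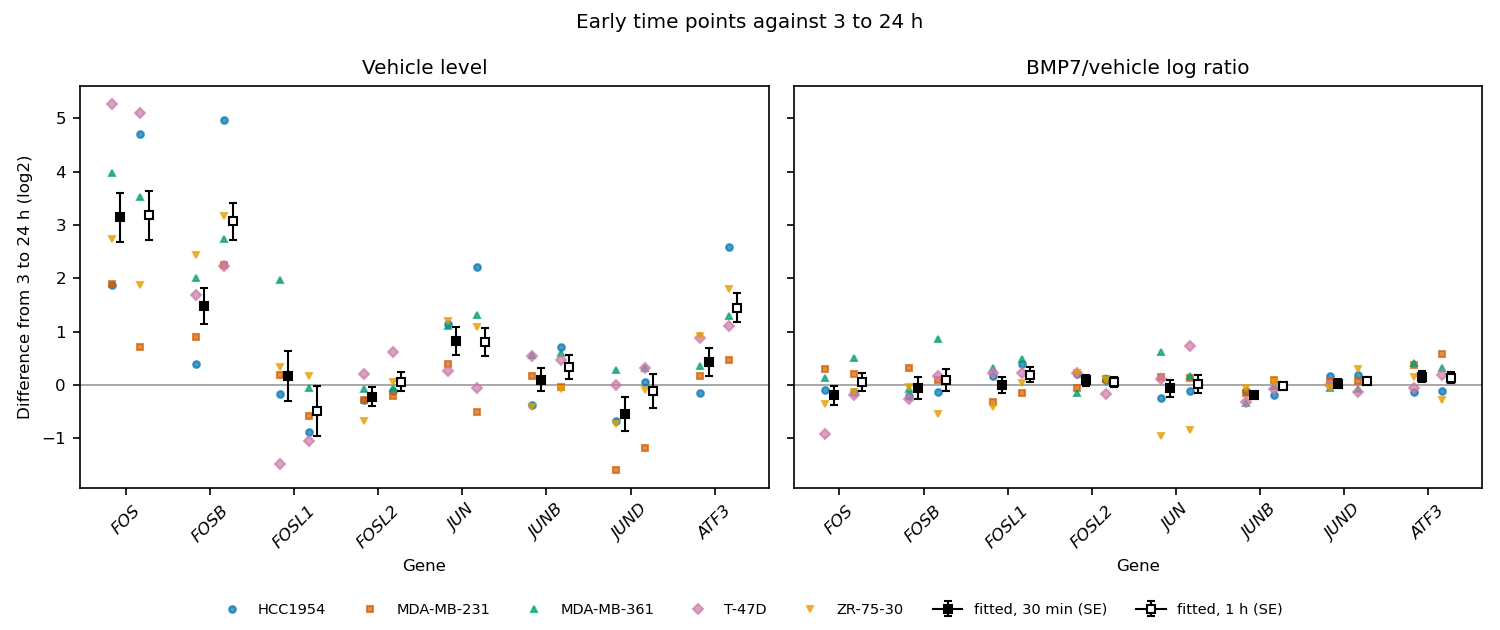
Difference of the 30 min or 1 h value from the mean of 3 to 24 h (log2), for the vehicle level (left) and the BMP7/vehicle log ratio (right). Coloured symbols are single cell lines, at 30 min on the left and 1 h on the right of each gene, and black squares with bars are fitted differences with SE, filled for 30 min and open for 1 h. The fitted vehicle level of FOS and FOSB is higher by 3.18 and 3.07 at 1 h than at 3 to 24 h. The fitted log ratio differences of all members lie between -0.20 and 0.19.

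On single arrays, a log ratio of 2-fold or more was found for 2 of the 238 values of the brightest member probes, or 0.84%, against 1.87% over all probes and arrays (0.908% up and 0.957% down). FOS in T-47D at 24 h was 2.57-fold higher with BMP7, and FOSB in MDA-MB-361 at 6 h was 0.47 of vehicle. Neither spot was well above background in either channel, with levels of -2.59 and -3.18 in vehicle, and the spot p-values of the scanner software were 0.112 and 0.443. The T-47D array at 24 h is one of those that stand apart, and 5.10% of its probes changed 2-fold or more. On the 6 dimmer probes, 4 of 180 values reached 2-fold, where the brightest probe of the gene did not. The dimmer JUNB probe was 2.16-fold higher with BMP7 in T-47D at 24 h. The dimmer ATF3 probe was 2.58-fold higher on that same array, where its vehicle signal was not well above background, and in ZR-75-30 it was 0.491 of vehicle at 30 min and 0.451 at 6 h. The spot p-values of the scanner software for these values were 2e-05 to 0.00114. With 1 array for each line and time point these values have no replicate check.

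**Figure D3:**
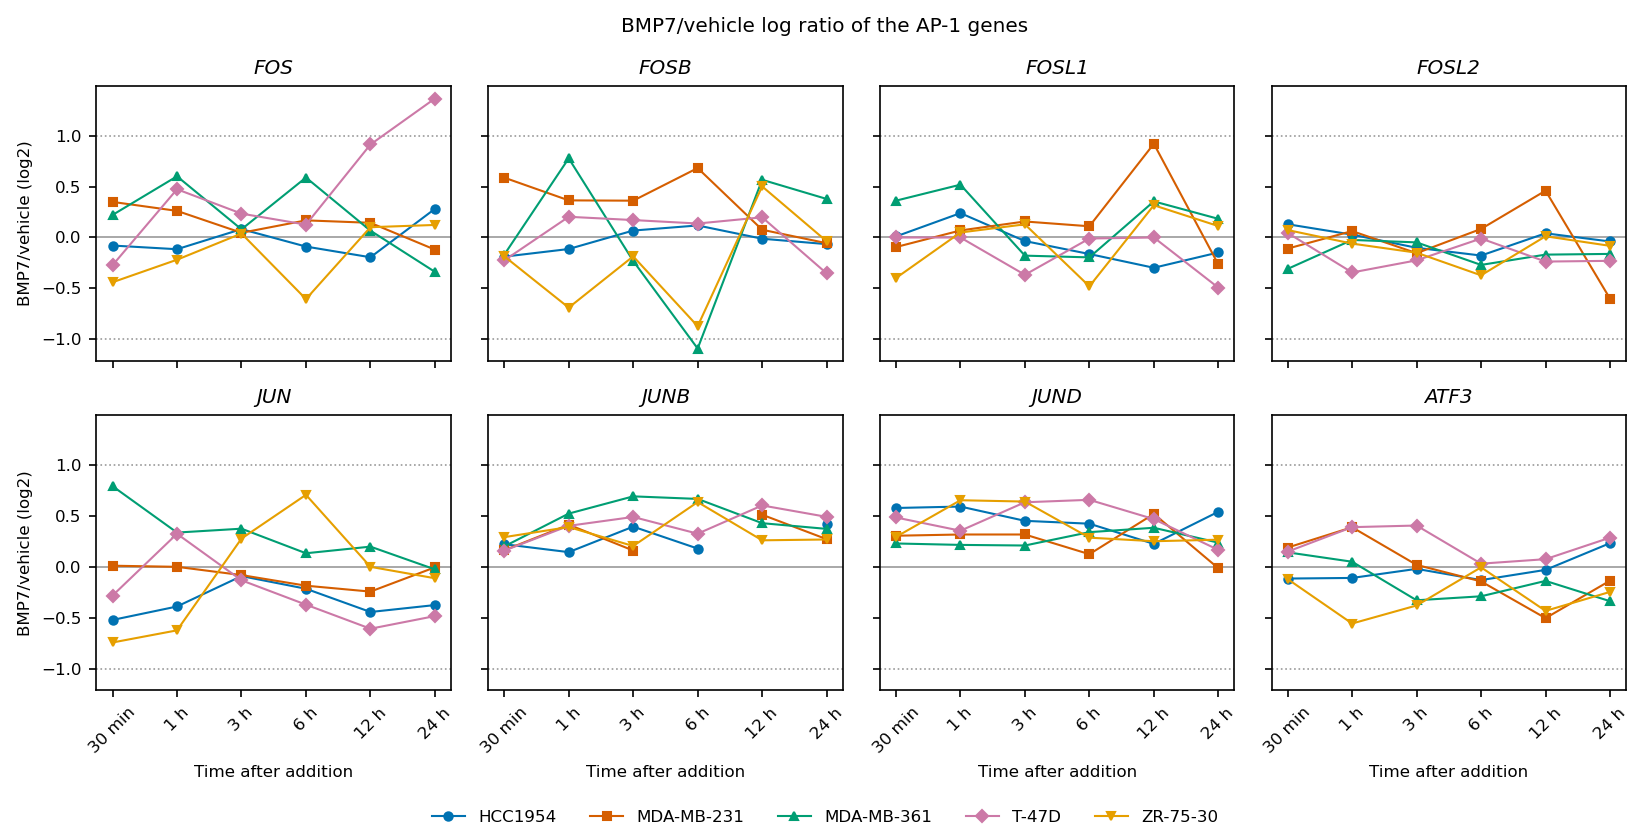
BMP7/vehicle log ratio (log2) of each AP-1 gene against time, 1 line per cell line and 1 array per point, with dotted lines at 2-fold. Most points lie near 0, JUNB and JUND lie above it at 0.14 to 0.69 and -0.01 to 0.66, and the 2 points past 2-fold are FOS in T-47D at 24 h (1.36) and FOSB in MDA-MB-361 at 6 h (-1.09).

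The log ratio of 1 of 8 members, ATF3, differed between the cell lines, a share no larger than the 15.2% of all probes that did. In T-47D the ATF3 log ratio was 0.15, 0.39, 0.41, 0.03, 0.08 and 0.29 from 30 min to 24 h, all above 0. In ZR-75-30 it was -0.12, -0.56, -0.38, -0.01, -0.43 and -0.25, all below 0. The other lines lay in between, with means of -0.03 in HCC1954 (SD 0.14, n = 6), -0.03 in MDA-MB-231 (SD 0.31) and -0.15 in MDA-MB-361 (SD 0.21). The means of T-47D and ZR-75-30, 0.22 (SD 0.16) and -0.29 (SD 0.21), were 0.51 apart (limma, F test, adjusted p = 0.0424). The dimmer ATF3 probe differed too (limma, adjusted p = 0.00993), and in T-47D and ZR-75-30 it ranged from -0.22 to 1.37 and from -1.15 to 0.08. The call was lost without HCC1954, MDA-MB-361, T-47D or ZR-75-30 (adjusted p = 0.0661, 0.0915, 0.360 and 0.110), with scan day as a term (0.203), on the first scan round alone (0.0756), without the 3 arrays that stand apart (0.176), with the series matrix values (0.0744) and with normexp and median scaling (0.117). It held under 7 of 16 alternatives, over which the adjusted p was 0.0063 to 0.36. As each scan day of the first round held arrays of the same line only, the fit with scan day cannot fully tell line and day apart.

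For JUN the lines also took different signs, but the difference did not pass (limma, adjusted p = 0.104). In HCC1954 JUN was below vehicle at all 6 times, from -0.52 to -0.09. In MDA-MB-361 it was 0.79, 0.34, 0.37, 0.13 and 0.20 from 30 min to 12 h and -0.03 at 24 h. In ZR-75-30 it was -0.74 and -0.62 at 30 min and 1 h, then 0.28, 0.71, 0.00 and -0.11. The 10 spots of an array differed by an SD of 0.0199 to 0.182 (median 0.0435), against an SD of 0.374 over the 30 arrays, so these values stood apart beyond the error within an array, while error between arrays has no replicate check. The interaction of line and time for the JUN log ratio, a fit added after the data had been seen, gave an adjusted p of 0.0963 (limma), where 2.17% of probes passed. The 30 min and 6 h arrays of ZR-75-30 were scanned in the second round, and 9.87% of probes changed 2-fold or more on the latter. The difference of JUN between lines passed under 3 of 16 alternatives, over which the adjusted p was 0.00954 to 0.66 (limma). These were without ZR-75-30 (limma, adjusted p = 0.00954), with the series matrix values (limma, adjusted p = 0.0477) and with probes well above background only (limma, adjusted p = 0.0495). Without the arrays that stand apart it did not pass (limma, adjusted p = 0.18).

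**Figure D4:**
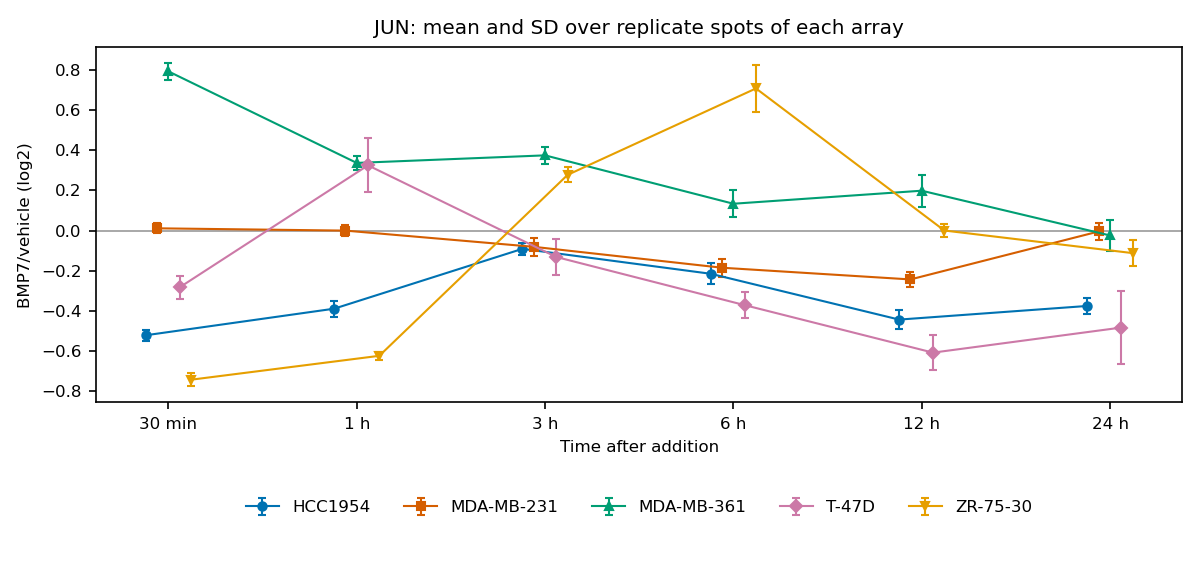
BMP7/vehicle log ratio (log2) of JUN against time for the 5 cell lines, as the mean and SD over its replicate spots on each array. The SD bars, 0.0199 to 0.182, are small beside the steps between arrays, with MDA-MB-361 at 0.79 and ZR-75-30 at -0.74 at 30 min.

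In the absence of BMP7 the levels of AP-1 genes differed between the lines. The vehicle level differed between lines for 7 of 8 members, where 72.9% of probes did, and JUND was the member that did not pass. Without the 3 arrays that stand apart, all 8 passed. FOSL1, FOSL2 and JUN were highest in MDA-MB-231 and HCC1954. FOSB and ATF3 were highest in HCC1954, FOS in HCC1954 and ZR-75-30, and JUNB in ZR-75-30 and HCC1954. Between pairs of lines, 7 members differed for HCC1954 with MDA-MB-361 (47.9% of probes) and with T-47D (46.9%), and 5 for HCC1954 with MDA-MB-231 (40.2%) and with ZR-75-30 (39.5%). For MDA-MB-231 the counts were 6 with MDA-MB-361 (50.7%), 5 with ZR-75-30 (44.4%) and 3 with T-47D (48.1%). They were 5 for MDA-MB-361 with T-47D (45.1%) and with ZR-75-30 (41.1%), and 5 for T-47D with ZR-75-30 (44.4%). As the 6 arrays of a line are its 6 time points, the SD given here includes the change with time. The tests between lines and pairs took the time points as a block and pooled the spread over all 5 lines.

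FOSL1, whose product FRA1 is known from invasive breast cancer cells, was read at chr11:65416674-65416733 and had the widest range. Its vehicle level was 4.18 to 5.76 in MDA-MB-231 and 3.05 to 4.43 in HCC1954, with means of 4.84 (SD 0.58, n = 6) and 3.76 (SD 0.51, n = 6). In ZR-75-30 it was -0.63 to 1.01. In MDA-MB-361 and T-47D it was well above background on 1 of 6 arrays each, the array of T-47D being the 3 h array that stands apart (-0.04), and at -4.37 to -2.68 on the others of T-47D. The difference between lines had an adjusted p of 6.83e-13 (limma). The pairs MDA-MB-231 with HCC1954 (limma, adjusted p = 0.138) and MDA-MB-361 with T-47D (limma, adjusted p = 0.419) did not pass, and ZR-75-30 differed from all others. The spread pooled over lines in these tests was widest in the dim lines T-47D (SD 1.721) and MDA-MB-361 (SD 1.035). On the dimmer FOSL1 probe (chr11:65417282-65417341), which was not well above background on any array of T-47D or MDA-MB-361, MDA-MB-231 was at least 24.4-fold higher than T-47D and at least 30.5-fold higher than MDA-MB-361. HCC1954 was at least 11.9-fold and 14.9-fold higher than these lines. Each bound sets the mean of the bright line against the lowest signal well above background on the arrays of the dim line (limma, adjusted p = 7.3e-17 for the difference between lines on this probe).

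FOSL2, which encodes FRA2, was 5.06 to 5.65 in MDA-MB-231, 3.95 to 4.76 in HCC1954, 2.41 to 3.71 in ZR-75-30, 2.57 to 3.22 in MDA-MB-361 and 1.25 to 2.12 in T-47D. MDA-MB-231 lay 12.4-fold over T-47D (limma, adjusted p = 1.35e-14), and the only neighbours in this order that did not differ were ZR-75-30 and MDA-MB-361 (limma, adjusted p = 0.377). All 4 FOSL2 probes differed between lines.

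JUN was 6.06 to 7.36 in MDA-MB-231 and 5.15 to 7.65 in HCC1954, 4.02 to 5.55 in ZR-75-30, 3.23 to 4.15 in T-47D and 1.47 to 3.14 in MDA-MB-361. MDA-MB-231 was 19.8-fold over MDA-MB-361 (limma, adjusted p = 5.5e-12). The pair MDA-MB-231 with HCC1954 did not pass (limma, adjusted p = 0.170), and the other neighbours did. JUN and FOSL1 thus shared their 2 highest lines.

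JUNB was 8.19 to 8.92 in ZR-75-30, 7.59 to 8.97 in HCC1954, 7.12 to 7.97 in MDA-MB-361, 5.46 to 6.78 in T-47D and 6.01 to 6.30 in MDA-MB-231. ZR-75-30 was higher than MDA-MB-231 by 2.39 (SE 0.26, limma, adjusted p = 4.32e-08). The pairs ZR-75-30 with HCC1954 (limma, adjusted p = 0.461) and T-47D with MDA-MB-231 (limma, adjusted p = 0.829) did not pass. MDA-MB-231, where JUN was highest in mean, was at the low end for JUNB.

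ATF3 was highest in HCC1954, at 4.81 to 8.34, and higher there than in each other line by 1.91 to 3.18. No pair among MDA-MB-231, T-47D and ZR-75-30 passed (limma, adjusted p of 0.0998 to 0.968), nor did ZR-75-30 with MDA-MB-361 (limma, adjusted p = 0.0696). FOS had means of 2.60 in HCC1954 (SD 1.95, n = 6) and 2.45 in ZR-75-30 (SD 1.23, n = 6), a pair that did not pass (limma, adjusted p = 0.836). Its means were lower in MDA-MB-231 (0.95), T-47D (0.32) and MDA-MB-361 (0.19), and no pair among these passed (limma, adjusted p of 0.259 to 0.848). With scan day as a term, FOS no longer differed between lines (limma, adjusted p = 0.743). Each scan day of the first round held arrays of the same line only, so that fit cannot fully tell line and scan day apart. FOSB was higher in HCC1954 than in each other line by 2.32 to 3.86, and lowest in MDA-MB-361.

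JUND was 7.67 to 9.55 on 28 of the 30 arrays, 11.27 in MDA-MB-231 at 6 h, and 7.58 at 3 h in T-47D, both on arrays that stand apart. Its difference between lines did not pass (limma, adjusted p = 0.197). Without the 3 arrays that stand apart it did (limma, adjusted p = 0.00301), as it did on the first scan round alone (limma, adjusted p = 0.00197) and without MDA-MB-231 (limma, adjusted p = 0.00868), with HCC1954 highest at a mean of 9.23 over its 6 arrays.

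**Figure D5:**
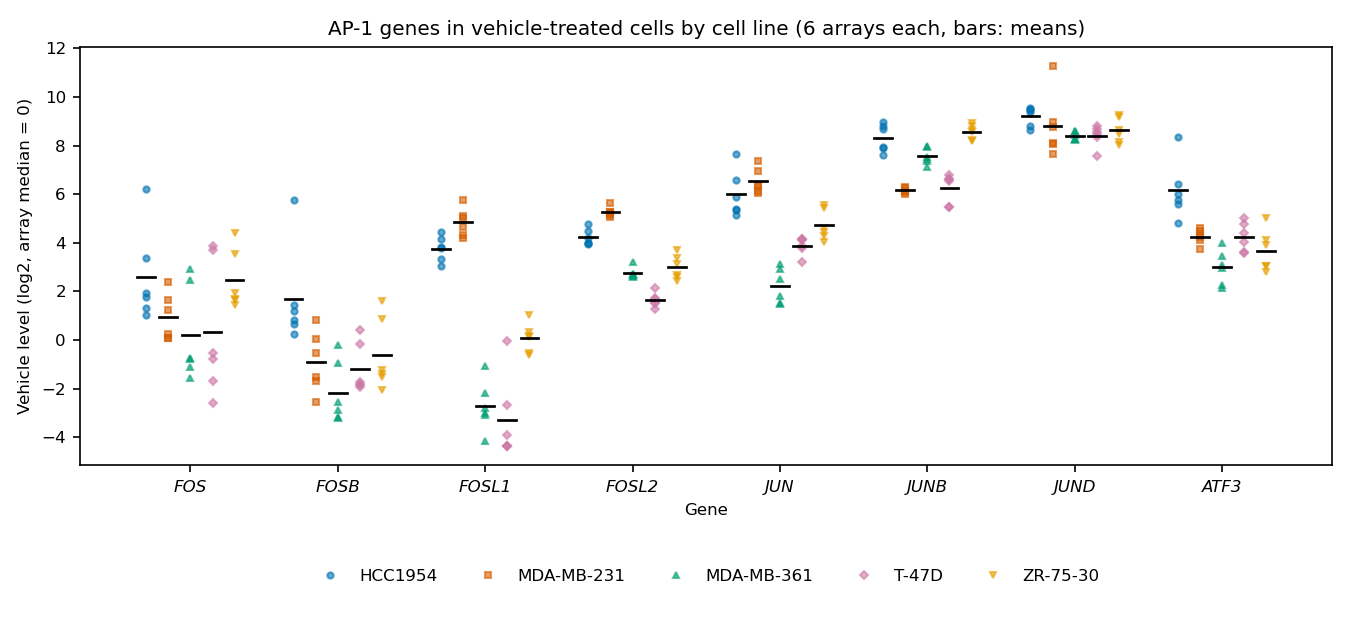
Vehicle level (log2, array median = 0) of each AP-1 gene on the 6 arrays of each cell line, with bars at the mean. FOSL1, FOSL2 and JUN are highest in MDA-MB-231 (means 4.84, 5.26 and 6.54), JUNB in ZR-75-30 (8.56) and FOS, FOSB and ATF3 in HCC1954. Levels of different genes come from different probes and are not comparable.

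Genes around AP-1 were described from lists. Of 18 other immediate early genes, 1 passed at 30 min and at 1 h in vehicle-treated cells, EGR1, a zinc finger factor, higher by 1.90 (SE 0.33, limma, adjusted p = 0.0436) and by 1.97 (SE 0.33, limma, adjusted p = 0.0245). The median difference of that list was 0.38 at 30 min and 0.77 at 1 h, beside 0.30 and 0.57 for the members and -0.058 and -0.002 for all probes. EGR2 and CTGF differed at 1 h by 2.60 (SE 0.69) and 2.28 (SE 0.49) and did not pass (limma, adjusted p = 0.631 and 0.261). Of the 26 listed AP-1 targets, 0 passed at either time, the largest differences being 1.07 for the collagenase gene MMP13 (SE 0.39, adjusted p = 1) and 0.98 for the phosphatase gene DUSP1 (SE 0.31, adjusted p = 1) at 1 h (limma). Of 24 other basic leucine zipper genes and 23 genes of the kinases and factors upstream of AP-1, 0 passed at either time in the vehicle level, and 0 in the log ratio.

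Between lines, the vehicle level differed for all 26 AP-1 targets, with PLAUR (the urokinase receptor), IL8 and KRT6A, a keratin, spanning 10.29, 10.29 and 10.14 between the highest and the lowest line. It differed for 23 of 24 basic leucine zipper genes and all 23 upstream genes, where 72.9% of all probes did. The log ratio differed between lines for the AP-1 targets TIMP1 and SPP1, 5 of 24 basic leucine zipper genes (ATF6, CREB3, CREB5, MAFG and NFE2L2), 7 of 23 upstream genes (MAPK14, MAP2K2, MAP2K4, MAP3K5, SRF, ELK1 and RPS6KA1), 3 of 18 other immediate early genes (IER3, MYC and ZFP36) and 3 of 6 BMP targets (ID2, ID3 and SMAD6), where 15.2% of probes did. Among the AP-1 relatives and upstream genes that passed, the widest spans between line means were 0.79 for ELK1 (limma, adjusted p = 0.0284), a partner of serum response factor, and 0.61 for NFE2L2 (limma, adjusted p = 0.00736), the oxidative stress factor NRF2.

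The genes whose vehicle level ran most like FOS over the 30 arrays, once the mean of each line was removed, were KLF2 (Pearson r = 0.82), EGR1 (0.82) and RIBC2 (0.74), among 12805 probes well above background in both channels on all arrays. For JUN they were CYR61 (0.76), GADD45B (0.75) and EDN1 (0.72), and for ATF3 MDM4 (0.84), NR4A1 (0.81) and SP3 (0.78). Among the members, ATF3 ran with FOSB at 0.86 and with FOS at 0.69, and FOS with FOSB at 0.77 and with JUN at 0.67. FOSL2 and JUND did not follow FOS (0.03 and 0.02). In the log ratio the most alike were PDXP (0.75), RNF40 (0.71) and SLC9A3R1 (0.71) for FOS, TPR, C12orf65 and EPS8 (each 0.85) for JUN, and PRRT2 (0.79), C12orf35 (0.75) and C1orf25 (0.72) for ATF3, and FOS and FOSB were at 0.06. These correlations are descriptions, since the points share cell lines, arrays and labeling.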

How the data were processed

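Gene expression was measured on 30 two-colour Agilent whole human genome arrays, 1 per cell line and time point, from pooled cultures. Per the file headers, the authors' Feature Extraction 9.5.1.1 output holds background-corrected, dye-normalized intensities, log10 ratios of Cy5 (BMP7) over Cy3 (vehicle) and a p-value of each log ratio, as deposited. The deposited series matrix holds log2 ratios, medians 0, which ran in the same direction (r = 0.825 to 0.998 with the scanner ratios). The labels do not give the dose.

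Control spots and those marked as outliers were dropped, repeat spots averaged per probe, log10 ratios turned into log2 and each array set to a median of 0. The vehicle level is log2 of the processed Cy3 intensity minus the array's median. Each gene was represented by the probe with the highest median Cy3 level. All 41000 probes were fitted with limma 3.58.1 in R 4.3.3, with cell line as a block for time differences and the 6 time points as a block for line differences. The mean log ratio was fitted over the 5 line means. Benjamini-Hochberg adjustment and a threshold of 0.05 were used. The fits were tested on simulated data. Other calculations used Python 3.11.15.

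The members and gene lists were chosen with earlier results of these data known. Every member was named, each gene of the other lists that passed a test, and otherwise at most 3 per list with the largest change. For the vehicle level between lines, where nearly all listed genes passed, only 3 were named. A result for a gene of the target list is not reported here. For likeness, the 3 gene symbols with the highest Pearson r were named. Alternatives were normexp correction (offset 50) with loess, median scaling or quantile scaling, 75th percentile scaling, the series matrix, outlier spots kept, probes well above background, the mean of a gene's probes, a 3-fold limit, a spot p under 0.01, scan day, scan round or slide in the model, cell line as a random block or no block, and leaving out each line. Depth is not counted on arrays, so their number limits the precision. The p-values of the mean log ratio measure the spread between the 5 lines, and those of the other fits the spread between arrays left after the blocks.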

Additional observations from a re-analysis of the deposited data

Results flagged for a closer look

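The response to BMP7 differed between the cell lines for 3 of the 14 probes of the AP-1 genes, where 15.2% of all probes did. For ATF3 the brightest probe gave an adjusted p of 0.0424 (limma, F test), with 6 of 6 arrays above 0 in T-47D and 6 of 6 below 0 in ZR-75-30. Its dimmer probe gave 0.00993 (limma). The dimmer JUNB probe gave 0.00985 (limma). Its log ratios were 0.14 to 0.66 in MDA-MB-361, all 6 above 0, and -0.69 to -0.22 in MDA-MB-231, all 6 below 0. The -0.69 came from the 6 h array, which stands apart, and its BMP7 signal was not well above background. On the brightest JUNB probe the lines did not differ past the threshold (limma, adjusted p = 0.382), and MDA-MB-231 was above 0 on all 5 arrays measured. Alternatives were not run for the dimmer probes.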

How the results depend on the processing

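BMP7 and vehicle of a line and time point were paired on the same array, and the time comparisons took cell line as a block. Replicates could not be paired, because the labels give no replicate numbers and each line and time point has 1 array. For the mean log ratio over the lines, 0 members passed as reported, but 2 (JUNB and JUND) under each of normexp and loess, normexp and median scaling, the series matrix values, probes well above background only, and 30 arrays with cell line as a random block. For FOS and FOSB in the vehicle level, 1 member passed at 30 min, but 0 with scan day as a term, on the scan day with most arrays alone (MDA-MB-361) or without the cell line block, and 0 to 1 when a line was left out. At 1 h 2 passed, but 0 on that scan day alone or without the block, and 1 to 2 when a line was left out. For the log ratio between lines 1 member passed, but 0 with normexp and median scaling, with scan day as a term, on the first scan round alone and without the arrays that stand apart, 2 with probes well above background only and with the mean of a gene's probes, and 0 to 1 when a line was left out. The 2 values of 2-fold or more became 0 with normexp and loess, with probes well above background only, with a 3-fold limit and with a spot p under 0.01, 29 with normexp and median scaling (28 up), 1 without the arrays that stand apart and 1 to 2 when a line was left out. Why these counts moved was not tested, except that fewer arrays entered where arrays were left out. The first round and the arrays that stand apart were chosen after seeing the data. In the time comparisons of the log ratio no member passed under any alternative, and FOS and FOSB kept their direction in the vehicle level under all of them, with differences of 2.25 to 4.48 (FOS, 30 min), 2.29 to 3.799 (FOS, 1 h) and 1.77 to 3.28 (FOSB, 1 h). The comparisons between lines were not run on a single scan day, which held 1 line. With scan day as a term they cannot fully tell line and day apart, since each first-round day held arrays of the same line only. Signals near background limit FOSL1 and FOSB in MDA-MB-361 and T-47D, and FOS in T-47D.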
